A study of Mus musculus with 14 samples.

Results

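The 10 genes described here encode surface proteins of muscle stem cells (MuSCs) or receptors through which these cells read their niche: the integrin subunits Itga7 and Itgb1, the adhesion molecules Vcam1 and Cdh15, the syndecans Sdc3 and Sdc4, the receptors Met, Cxcr4 and Calcr, and the sialomucin Cd34. They were chosen by name from 21757 protein-coding genes. For each, every peak of 6 CUT&Tag peak lists was taken that overlapped the canonical GENCODE transcript on GRCm39 or the 20 kb on either side of it. This gave 19 pSMAD1/5/9 peaks in BMP6-stimulated cells of 7339 in the list, 2 of 949 in control cells, 25 of 12860 and 18 of 8577 SMAD4 peaks, and 90 of 78050 and 92 of 67790 H3K27ac peaks.

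The cells came from skeletal muscle of female mice aged 9 weeks that carry Pax7-EGFP, genotype C57BL/6N(Tg(Pax7-EGFP)Tajb), and were sorted by GFP, whose expression follows the Pax7 regulatory sequences of the transgene. All of them, controls included, were grown in culture, at 3% oxygen, and starved for 6 h with 200 ng/mL soluble BMPR1A, which binds BMPs of the medium. BMP6-stimulated cells then received 100 ng/mL BMP6 for 1 h, and control cells received the vehicle, 4 mM HCl with 0.1% BSA, for the same time. Each antibody and condition had 2 biological replicates, which the authors combined into 1 consensus list by irreproducible discovery rate (IDR), a measure of how well the order of peaks repeats between replicates. There is thus 1 list per antibody and condition and no replicate of a list, so a gene with a peak in 1 list and not in another was not tested for a difference.

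BMP ligands bind receptor complexes that phosphorylate SMAD1, SMAD5 and SMAD9, and these enter the nucleus with SMAD4, the partner they share with the TGF-β branch. CUT&Tag cuts and tags DNA next to an antibody on chromatin, and H3K27ac, an acetyl mark on histone H3, lies at active promoters and enhancers. In muscle, the MuSC lies between the fibre and its basal lamina: integrin α7β1 and syndecans hold it to laminin and other matrix, M-cadherin (Cdh15) joins it to the fibre, and Met, Cxcr4 and Calcr receive signals from outside the cell. Several of these proteins are used as surface markers to sort MuSCs.

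The sequences at the summits of the strongest pSMAD1/5/9 peak of 7 of these genes in BMP6-stimulated cells are shown because the results below turn on these sites. Each is the plus strand of GRCm39 in a window of 200 bp around the summit. For Cxcr4 only the 131 bp outside the transcript are given. Capitals mark matches to the searched motifs, which were the SMAD palindrome GTCTAGAC, the BMP-responsive SMAD site GGAGCC or GGCGCC, the E-box CAGCTG, the AP-1 words TGACTCA or TGAGTCA and the RBPJ words ATGGGAA or GTGGGAA, each on both strands.
Itga7, chr10:128757742-128757941: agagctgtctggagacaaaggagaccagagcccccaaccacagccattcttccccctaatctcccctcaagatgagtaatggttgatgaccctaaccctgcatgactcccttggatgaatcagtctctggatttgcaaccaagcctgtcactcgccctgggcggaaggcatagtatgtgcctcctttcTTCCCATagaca
Cdh15, chr8:123578094-123578293: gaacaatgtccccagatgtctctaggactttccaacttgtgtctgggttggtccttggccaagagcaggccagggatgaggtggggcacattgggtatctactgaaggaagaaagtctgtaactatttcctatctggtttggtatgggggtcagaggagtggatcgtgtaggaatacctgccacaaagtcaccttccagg
Sdc4, chr2:164274737-164274936: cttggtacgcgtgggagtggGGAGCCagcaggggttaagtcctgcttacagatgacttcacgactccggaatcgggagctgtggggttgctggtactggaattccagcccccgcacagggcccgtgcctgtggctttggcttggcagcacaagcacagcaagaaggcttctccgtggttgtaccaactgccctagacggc
Sdc3, chr4:130524700-130524899: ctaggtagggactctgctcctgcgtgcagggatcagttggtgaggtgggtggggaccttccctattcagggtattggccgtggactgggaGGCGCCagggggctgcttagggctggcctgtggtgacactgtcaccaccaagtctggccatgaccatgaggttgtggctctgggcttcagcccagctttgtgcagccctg
Met, chr6:17478886-17479085: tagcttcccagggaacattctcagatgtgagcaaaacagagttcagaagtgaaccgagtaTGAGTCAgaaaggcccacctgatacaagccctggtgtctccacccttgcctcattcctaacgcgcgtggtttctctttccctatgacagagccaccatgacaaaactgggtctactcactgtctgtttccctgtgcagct
Calcr, chr6:3741183-3741382: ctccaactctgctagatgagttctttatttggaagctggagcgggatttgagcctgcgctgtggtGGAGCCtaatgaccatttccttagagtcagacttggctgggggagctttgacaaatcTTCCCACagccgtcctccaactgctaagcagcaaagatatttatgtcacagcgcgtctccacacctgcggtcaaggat
Cxcr4, chr1:128520045-128520175: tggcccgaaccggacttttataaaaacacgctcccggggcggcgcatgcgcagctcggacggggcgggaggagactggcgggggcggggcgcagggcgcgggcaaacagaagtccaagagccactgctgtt

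In BMP6-stimulated cells 8 of the 10 genes had a pSMAD1/5/9 peak, against 29.1% of all protein-coding genes under the same rule. The exceptions were Vcam1 and Cd34. In control cells 2 genes had one, Itga7 and Cdh15, against 5.97% of all genes. The other 6 genes (Met, Sdc3, Sdc4, Calcr, Itgb1 and Cxcr4) had a pSMAD1/5/9 peak only in the list of BMP6-stimulated cells, where 23.5% of all genes did. The lists differ in length, and the BMP6 list was also shortened to its 949 strongest entries, the length of the control list. Then 3 genes had a peak (Itga7, Cdh15 and Sdc4), against 5.31% of all genes. In the full BMP6 list at an IDR of 0.01, 6 genes had a peak, without Calcr and Itgb1, against 17.3% of all genes. SMAD4 peaks were listed at 9 genes after BMP6 (39.3% of all genes) and at 8 in control cells (30.8%). All 8 genes with a pSMAD1/5/9 peak after BMP6 also had a SMAD4 peak in the same condition. Over all genes, 6322 had a pSMAD1/5/9 peak after BMP6, and 5522 of these also had a SMAD4 peak. Cd34 was the one gene without a pSMAD1/5/9 or SMAD4 peak in any list, as were 53.9% of all genes. H3K27ac peaks were listed at 10 of 10 genes in both conditions (74.8% of all genes after BMP6 and 73.4% in control cells).

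**Figure D1:**
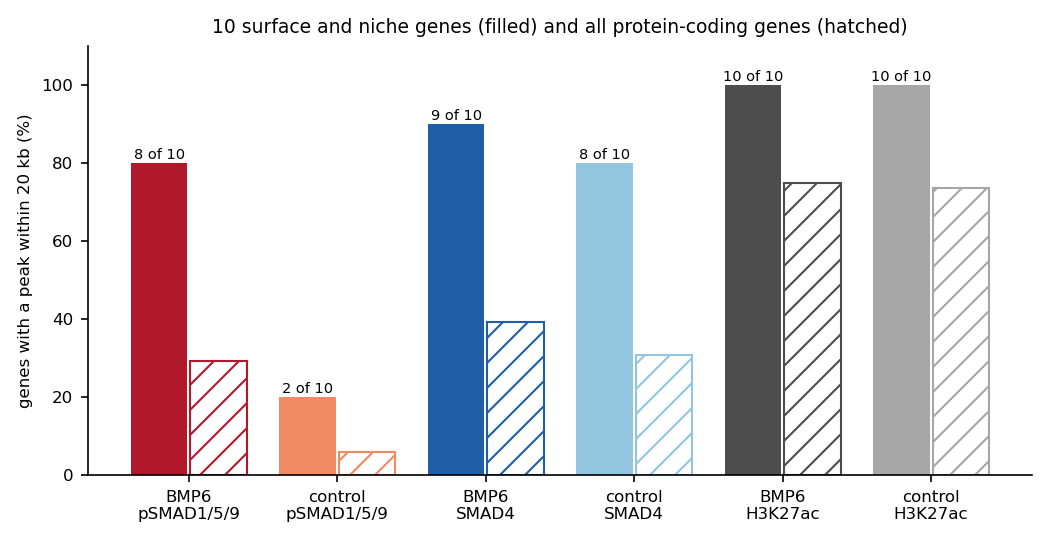
Share of genes with a peak within 20 kb of the gene body (%, vertical axis) in each of the 6 lists (horizontal axis), filled bars for the 10 surface and niche genes and hatched bars for all 21757 protein-coding genes. For pSMAD1/5/9 the filled bar stands at 8 of 10 genes after BMP6 and at 2 of 10 in control cells, and each filled bar is taller than the hatched one beside it.

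Promoter H3K27ac was also listed more often at these genes. An H3K27ac peak lay within 2 kb of the TSS in 9 of the 10 genes in both conditions, Calcr being the exception, against 55.1% of all genes after BMP6 and 53.0% in control cells. Among genes with such a peak in control cells, 44.9% had a pSMAD1/5/9 peak after BMP6, and 7 of 9 of the genes described here did; its part in the count was not tested. The windows were of similar size, with a median of 63.5 kb for these genes and 56.3 kb for all genes. Per 100 kb of window the 10 genes held 2.42 pSMAD1/5/9 peaks after BMP6, against 0.587 over all genes, and 3.19 SMAD4 peaks against 0.973. Itga7 alone held 8 of the 19 pSMAD1/5/9 peaks, and without it the density was 1.53 per 100 kb.

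**Figure D2:**
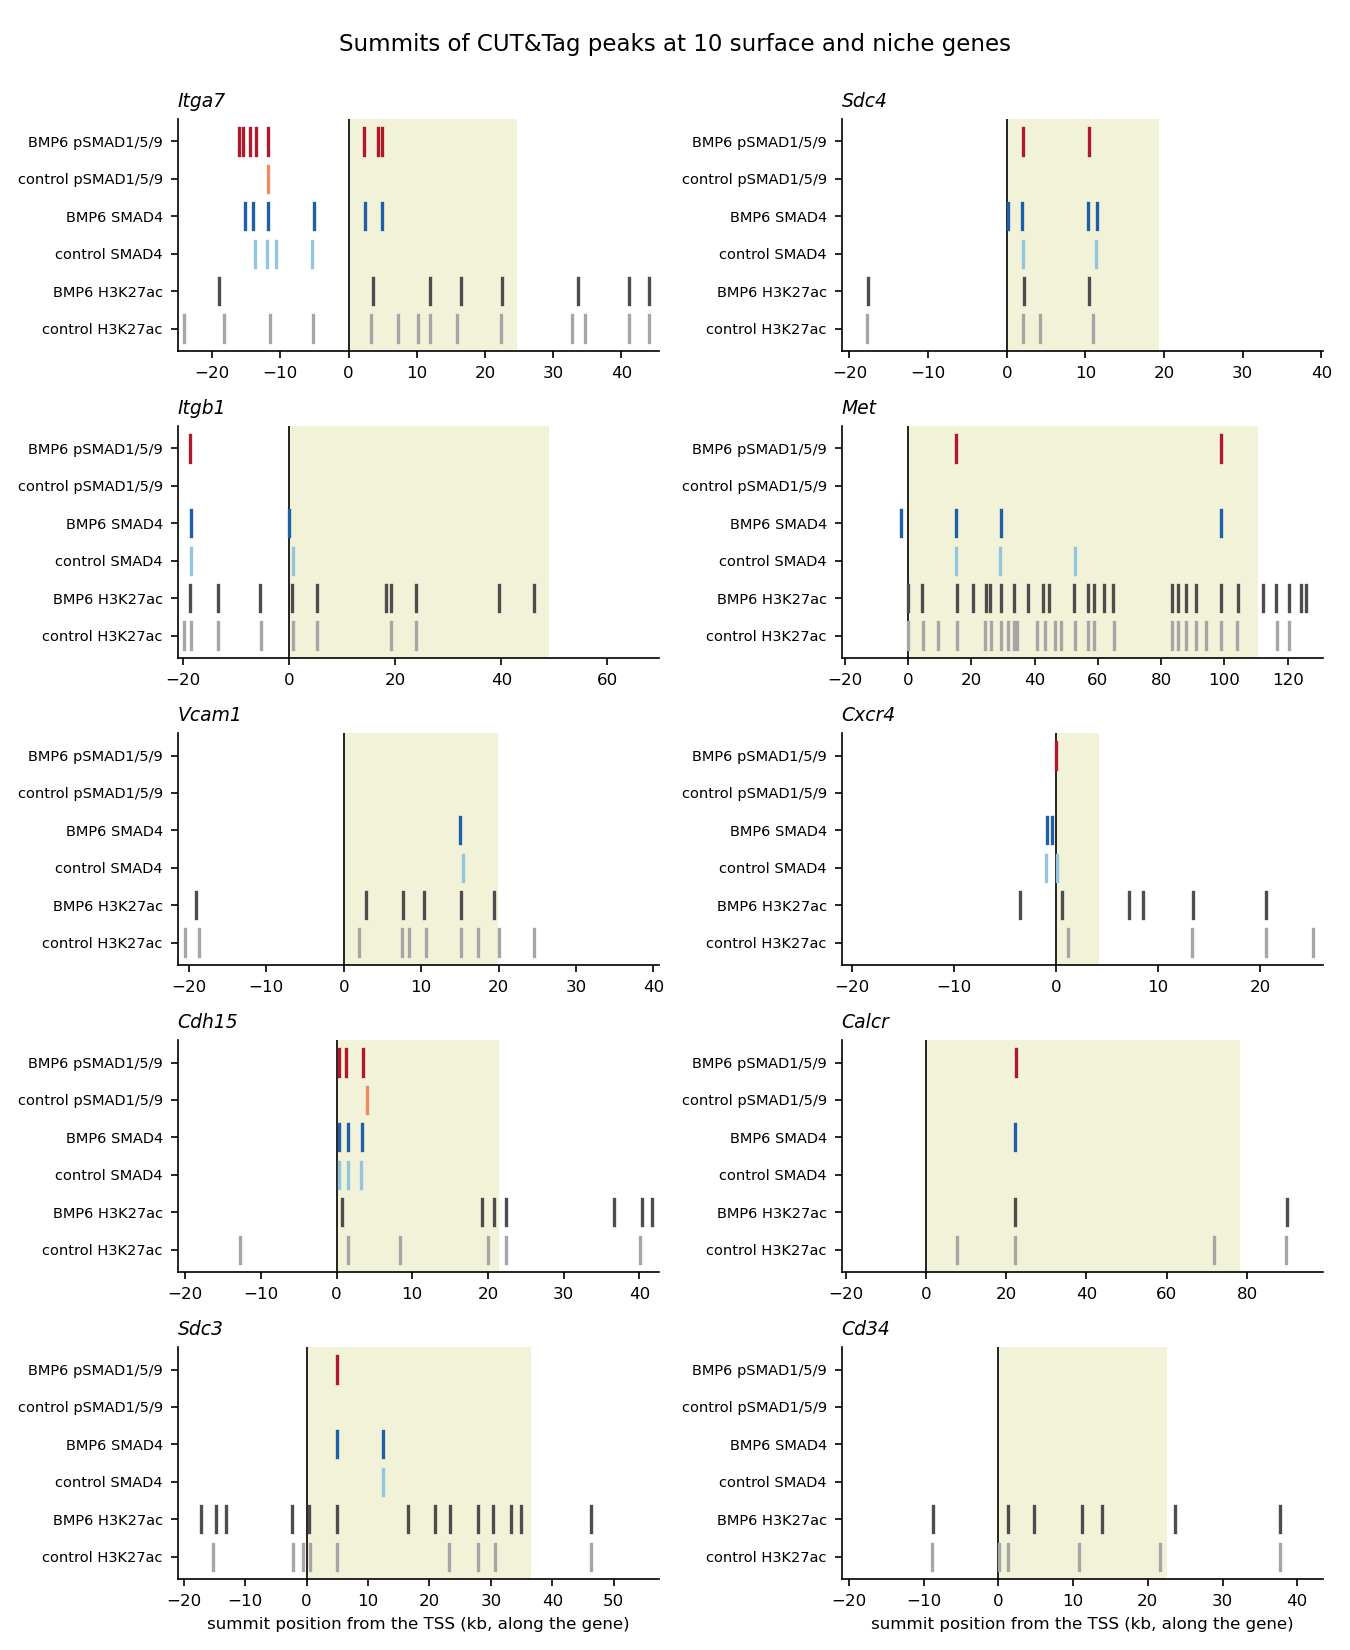
Summits of the peaks of the 6 lists (rows) at each gene, by position from the TSS in kb along the direction of transcription (horizontal axis). The shaded span is the gene body and the line at 0 is the TSS; Itga7 shows 8 pSMAD1/5/9 summits after BMP6 and 1 in control cells, and the rows of Cd34 hold H3K27ac summits alone.

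Of the 19 pSMAD1/5/9 peaks after BMP6, 4 overlapped the 2 kb on either side of the TSS of their gene, 1 an exon and 8 an intron, and 6 lay upstream. By signal they spanned the list, from rank 22 to rank 6964 of 7339, with a median rank of 1814. An overlap with a control pSMAD1/5/9 peak was found for 2 of them, or 10.5% (95% Wilson interval 2.94 to 31.4), against 11.4% of the whole list. Intervals here cover counting error over peaks alone, and the peaks of a gene are not independent. A SMAD4 peak of the same condition overlapped 18 (94.7%, 75.4 to 99.1), against 73.2% of the list. The exception was the weak Itga7 peak 4273 bp downstream of the TSS. A control SMAD4 peak overlapped 11 (57.9%, 36.3 to 76.9), against 57.2%. An H3K27ac peak overlapped 19 of 19 in the same condition, against 98.2% of the list.

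At 7 of the 19 sites a SMAD4 peak was listed after BMP6 and not in control cells (36.8%, 19.1 to 59.0), against 22.6% of the list. They were the strongest sites of Sdc3, Sdc4 and Calcr, 3 sites of Itga7 and the distal site of Met. Seen from SMAD4, 17 of 25 peaks after BMP6 overlapped a pSMAD1/5/9 peak (68.0%, 48.4 to 82.8), against 42.7% of the list, and 16 of 25 overlapped a control SMAD4 peak (64.0%, 44.5 to 79.8), against 45.5%. In the other direction 16 of 18 control SMAD4 peaks had a SMAD4 peak over them after BMP6 (88.9%, 67.2 to 96.9), against 69.7%. The 2 that had none were in Met, 52638 bp from the TSS, and in Itgb1, 712 bp from it.

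Itga7 (ENSMUSG00000025348.12) lies on the plus strand at chr10:128769621-128794169 and encodes the integrin α7 subunit, which pairs with β1 to bind laminin. Its strongest pSMAD1/5/9 peak after BMP6, 2580 bp wide, lay 11779 bp upstream by its summit and ranked 22 of 7339. In the order of each replicate column of the list it ranked 11 and 108, so both replicates placed it near the top. In control cells a pSMAD1/5/9 peak with its summit 11817 bp upstream ranked 33 of 949, and 37 and 24 in the replicate columns. SMAD4 peaks at the same place ranked 42 of 12860 after BMP6 and 98 of 8577 in control cells. The site was thus in the top 3.48% or higher of each of the 4 lists. It is nearer to another gene, however: its summit was 1551 bp from the TSS of Bloc1s1, a subunit of the BLOC-1 complex of lysosome-related organelles. The peak also reached the 2 kb around the TSS of Rdh5, a retinol dehydrogenase.

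The next pSMAD1/5/9 peak of Itga7, 13559 bp upstream and 625 bp from the TSS of Rdh5, ranked 283 and lay directly beside the first one, with no base between them. A further 3 peaks upstream ranked 1814, 2855 and 6964, all within 2 kb of the TSS of Rdh5. The 5 upstream peaks thus belong by distance to neighbours of Itga7. Inside the gene 3 peaks were listed after BMP6 and none in control cells. Their summits lay 2278 bp, 4273 bp and 4890 bp from the TSS, at ranks 4367, 5986 and 1250. At 4890 bp the peak ranked 1302 and 1347 in the replicate columns, so its place was almost the same in both, and it overlapped an exon. SMAD4 peaks at 2347 bp and 4956 bp, ranks 9355 and 6253 of 12860, overlapped the first and the third of them, and no control SMAD4 peak was listed inside the gene.

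Cdh15 (ENSMUSG00000031962.8), on the plus strand at chr8:123574705-123596048, encodes M-cadherin, which links cells of the muscle lineage by calcium-dependent contacts. All 3 of its pSMAD1/5/9 peaks after BMP6 lay at the start of the gene and had the TSS of Cdh15 as the nearest one. The strongest, in an intron 3489 bp from the TSS, ranked 36 of 7339, and 14 and 340 in the replicate columns. The others, at 1320 bp and 327 bp, ranked 367 and 1605. In control cells 1 peak was listed, 4011 bp from the TSS, at rank 286 of 949. This control peak, 720 bp wide, lay wholly inside the strongest peak after BMP6, 1830 bp wide. Because of these widths the overlap did not reach 50% of both lengths. SMAD4 peaks were listed at all 3 places in both conditions: at the intronic place they ranked 279 of 12860 after BMP6 and 131 of 8577 in control cells, and at the TSS 2827 and 1638. For SMAD4 the order of the 3 places was the same in both conditions, the intronic one first and the one near 1.5 kb last. The intronic place stood in the top 2.17% of the SMAD4 list after BMP6 and in the top 1.53% in control cells.

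**Figure D3:**
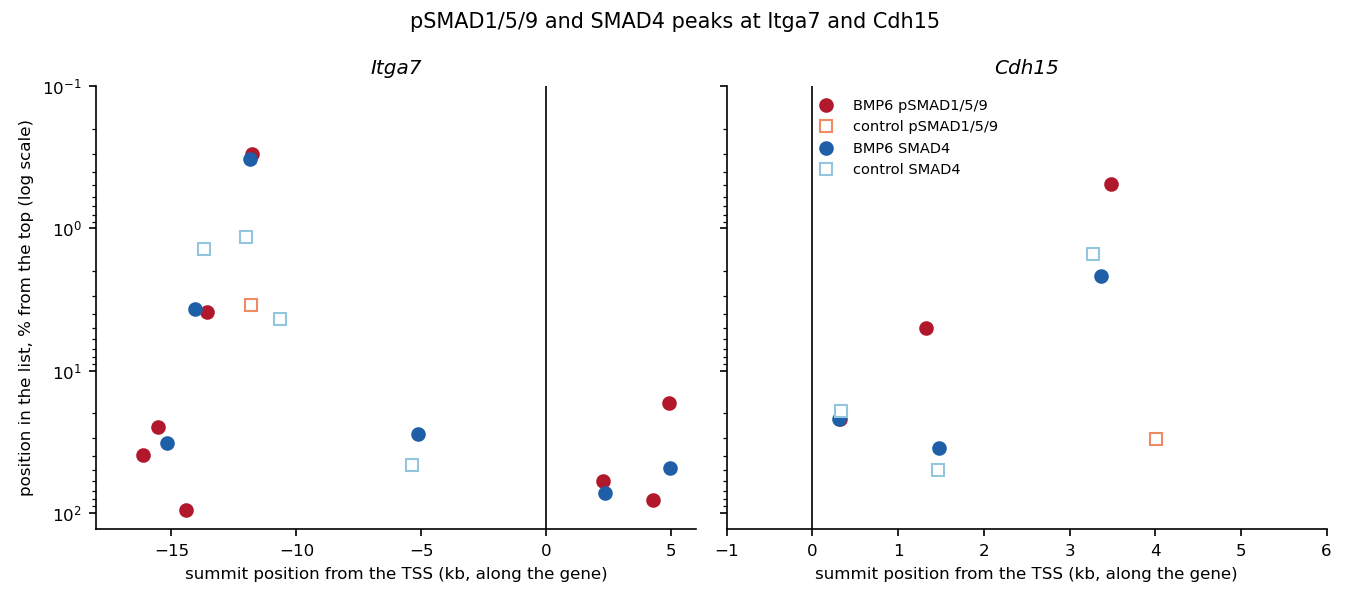
Summit position from the TSS in kb (horizontal axes) against position in the peak list in per cent from the top (vertical axis, log scale, strongest at the top) for the pSMAD1/5/9 and SMAD4 peaks at Itga7 and Cdh15, filled circles for BMP6 and open squares for control cells. After BMP6 the leading pSMAD1/5/9 peaks stand at 0.300% upstream of Itga7 and at 0.491% in Cdh15, with SMAD4 peaks of both conditions beside them.

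Itga7 and Cdh15 were the 2 genes with a pSMAD1/5/9 peak in the top 10% of the list of BMP6-stimulated cells, where 4.17% of all genes had one. Both stayed in the top 10% in each replicate column. Only Cdh15, Sdc4 and Cxcr4 had a pSMAD1/5/9 peak that overlapped the 2 kb around their TSS after BMP6, against 12% of all genes.

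Itgb1 (ENSMUSG00000025809.17; chr8:129411876-129460618, plus strand) encodes integrin β1, the common partner of α7 and many other α subunits. It had 1 pSMAD1/5/9 peak after BMP6, in intergenic sequence 18555 bp upstream, at rank 4398 of 7339 (5187 and 3239 in the replicate columns). This peak did not pass an IDR of 0.01. A SMAD4 peak at this place ranked 2599 of 12860 after BMP6, in the top 20.2%, and 7187 of 8577 in control cells, in the top 83.8%. In the replicate columns the ranks were 2304 and 3560 after BMP6 and 7717 and 5868 in control cells, so the places in the lists did not overlap between conditions. Near the TSS the SMAD4 peaks of the 2 conditions were different sites that did not overlap. After BMP6 the summit lay 37 bp from the TSS at rank 6508, and in control cells 712 bp from it at rank 7832. Neither passed an IDR of 0.01.

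Vcam1 (ENSMUSG00000027962.16; chr3:115903598-115923347, minus strand) encodes the ligand of integrin α4β1 and is a surface marker of quiescent MuSCs. No pSMAD1/5/9 peak was listed within 20 kb of it in either condition. The nearest summit in BMP6-stimulated cells was 140.7 kb from the gene body. One SMAD4 peak was listed per condition, over an exon, 15017 bp from the TSS at rank 10120 of 12860 after BMP6 and 15381 bp from it at rank 6258 of 8577 in control cells. These were low places, in the top 78.7% and 73.0%, and neither peak passed an IDR of 0.01. The H3K27ac peak over the same exon was strong, at rank 676 of 78050 after BMP6 and 1641 of 67790 in control cells.

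The 2 syndecans are heparan sulfate proteoglycans, which bind growth factors and matrix through their sugar chains. Sdc3 (ENSMUSG00000025743.16; chr4:130519848-130556217, plus strand) had 1 pSMAD1/5/9 peak after BMP6, in an intron 4952 bp from the TSS, at rank 1274 of 7339 and at 1454 and 1166 in the replicate columns. A SMAD4 peak was listed at the same place after BMP6, at rank 2166 of 12860, and none in control cells. A second intronic SMAD4 peak, was in both lists, 12495 bp from the TSS at rank 6128 after BMP6 and 12489 bp from it at rank 5639 in control cells. H3K27ac covered the first place in both conditions, in a peak of 12740 bp after BMP6 and 13200 bp in control cells.

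Sdc4 (ENSMUSG00000017009.5; chr2:164266025-164285261, minus strand) had 2 pSMAD1/5/9 peaks after BMP6 and none in control cells. The stronger, in an intron 10424 bp from the TSS, ranked 853 of 7339 and 811 and 1043 in the replicate columns. It was just outside the top 10% of the list, at 11.6%. The other, with its summit 2084 bp from the TSS, ranked 2678. Of the 4 SMAD4 peaks after BMP6, the strongest lay at the first of these places, 10290 bp from the TSS, at rank 1210 of 12860. About 1 kb further into the gene a SMAD4 peak was listed in both conditions, at rank 1922 after BMP6 and 3898 of 8577 in control cells, the strongest control peak of the gene. The place near 2 kb also had SMAD4 peaks in both, at ranks 5337 and 6127.

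Met (ENSMUSG00000009376.17; chr6:17463749-17573979, plus strand), the receptor tyrosine kinase for hepatocyte growth factor, is the longest of the 10 genes. Its stronger pSMAD1/5/9 peak after BMP6, in an intron 15237 bp from the TSS, ranked 1264 of 7339 and 1050 and 1887 in the replicate columns. The second, 98887 bp from the TSS, ranked 3984 and was nearer to the TSS of Capza2 (74315 bp), an actin-capping protein. SMAD4 at the first place ranked higher in control cells, 978 of 8577 or the top 11.4%, than after BMP6, 4988 of 12860 or the top 38.8%. The strongest SMAD4 peak after BMP6 lay 29446 bp from the TSS, at rank 1119, with a control peak at rank 1271 nearby and no pSMAD1/5/9 peak. The 200 bp around the summit of that peak after BMP6 are almost wholly a short repeat, whose part in the signal was not tested. SMAD4 reached the 2 kb around the TSS after BMP6 alone, at rank 10596.

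Cxcr4 (ENSMUSG00000045382.8; chr1:128515936-128520044, minus strand), the receptor of the chemokine CXCL12, was the gene whose pSMAD1/5/9 summit lay closest to its TSS, 32 bp upstream. The peak ranked 2946 of 7339 after BMP6, and 3977 and 1995 in the replicate columns. SMAD4 peaks lay 391 bp and 909 bp upstream after BMP6, at ranks 9544 and 3782 of 12860, and 43 bp downstream and 971 bp upstream in control cells, at ranks 4767 and 5049 of 8577. Promoter SMAD4 was thus listed in both conditions and pSMAD1/5/9 in 1.

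Calcr (ENSMUSG00000023964.16; chr6:3685680-3763630, minus strand) encodes the calcitonin receptor, a G protein-coupled receptor known for keeping MuSCs quiescent. Its single pSMAD1/5/9 peak after BMP6, in an intron 22347 bp from the TSS, ranked 4323 of 7339, and 5649 and 2802 in the replicate columns, a wide gap. A SMAD4 peak at the same place ranked 5624 of 12860. Calcr was the one gene of the 10 with both factors listed after BMP6 and neither in control cells. Its pSMAD1/5/9 peak did not pass an IDR of 0.01, while its SMAD4 peak did. The H3K27ac peak over the place was the strongest of the gene in both conditions, at rank 8292 of 78050 after BMP6 and 7249 of 67790 in control cells. No H3K27ac peak reached the TSS in either condition.

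**Figure D4:**
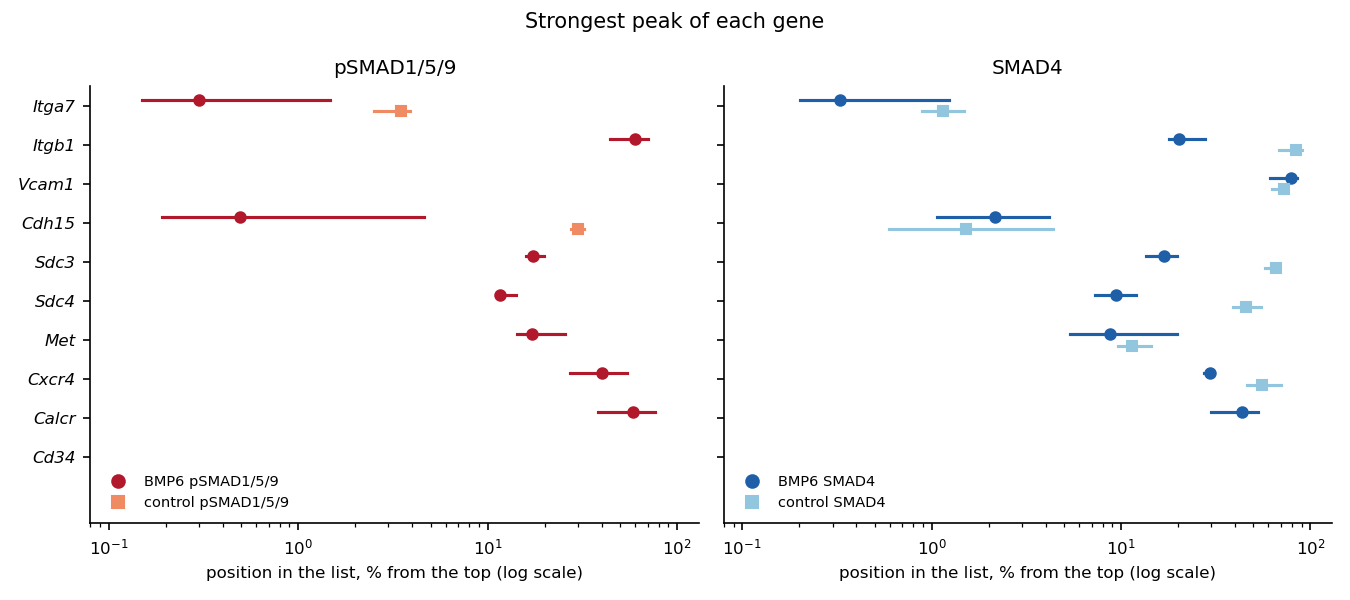
Place of the strongest pSMAD1/5/9 (left) and SMAD4 (right) peak of each gene in its list, in per cent from the top (horizontal axes, log scale), circles for BMP6 and squares for control cells. Bars join the places in both replicate columns, and 2 genes have a control pSMAD1/5/9 mark. For Itgb1, Sdc3, Sdc4 and Cxcr4 the SMAD4 bars of both conditions stand apart. In Sdc3, Sdc4 and Cxcr4 these bars belong to different sites, since the strongest peak was taken separately in each list.

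Cd34 (ENSMUSG00000016494.11; chr1:194621127-194643601, plus strand), a sialomucin that marks quiescent MuSCs and blood progenitors, had no pSMAD1/5/9 or SMAD4 peak. The nearest pSMAD1/5/9 summit after BMP6 lay 318.8 kb from the gene body and the nearest SMAD4 summit 198.8 kb from it. H3K27ac was listed in 7 peaks after BMP6 and 6 in control cells. At the TSS its best peak ranked 45427 of 78050 after BMP6 and 61282 of 67790 in control cells, low in both lists.

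At the TSS, a SMAD4 peak was listed after BMP6 for Met, Sdc4, Itgb1, Cdh15 and Cxcr4, against 17.8% of all genes, and for the same genes without Met in control cells, against 12.4%. For H3K27ac the best TSS peak of Itga7 stood at 0.186% from the top after BMP6 and at 1.71% in control cells, and that of Cdh15 at 2.55% and 0.962%. Met, Itgb1, Vcam1 and Cxcr4 stood between 1.15% and 4.56% in both lists, Sdc3 at 6.49% and 12.7%, and Sdc4 at 35.5% and 31.3%. The Sdc3 peak is the wide intragenic one, with its summit 4938 bp from the TSS after BMP6 and 5009 bp in control cells. The Sdc3 peaks with the summit nearest to the TSS, at 464 bp and 600 bp, stood at 21.9% and 47.0%. The order of the genes was thus led by the same 6 genes in both conditions, with Cd34 last of the 9. H3K27ac covered most of the window of Itga7, 62.9% after BMP6 and 57.1% in control cells, and least of that of Calcr, 4.63% and 5.93%. Over the windows, 71 of 90 H3K27ac peaks after BMP6 overlapped a control peak (78.9%, 69.4 to 86.0), against 72.0% of the list, and 85 of 92 control peaks a peak after BMP6 (92.4%, 85.1 to 96.3), against 86.8%. All H3K27ac widths were multiples of 70 bp after BMP6 and of 100 bp in control cells. For pSMAD1/5/9 all control widths were multiples of 40 bp, while 36.1% of the widths after BMP6 were multiples of 15 bp. The part of these width steps in the peak counts was not tested.

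**Figure D5:**
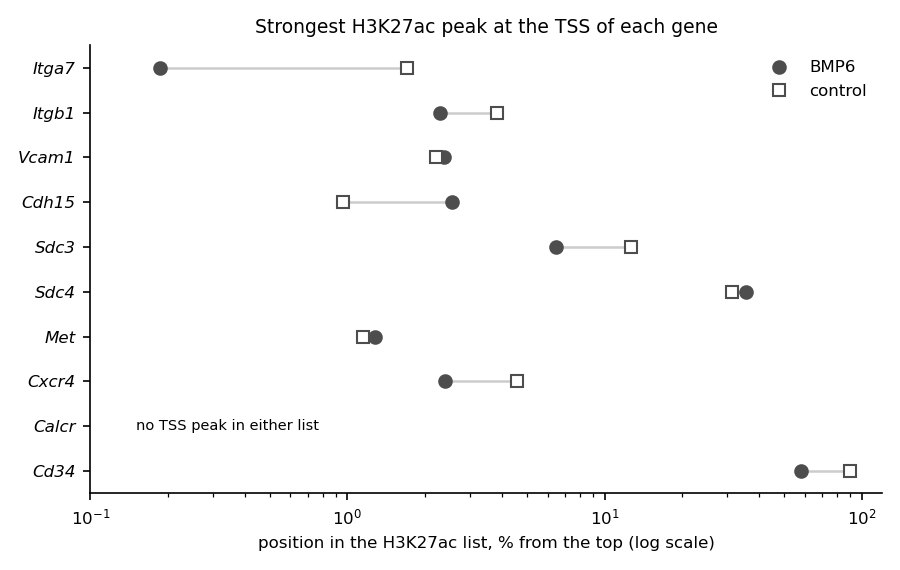
Place of the strongest H3K27ac peak within 2 kb of the TSS of each gene, in per cent from the top of the list (horizontal axis, log scale), filled circles for BMP6 and open squares for control cells. Itga7 stands at 0.186% and 1.71%, Cd34 at 58.2% and 90.4%, and Calcr has no such peak.

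In the windows of 200 bp around the summits of the 19 pSMAD1/5/9 peaks, the BMP-responsive SMAD site was found in 6 (31.6%), against 30.2% of the list, and the palindrome in 0, against 0.518%. The windows of Sdc3, Sdc4 and Calcr given above each hold 1 such site, in Sdc3 5 bp from the summit. An RBPJ word, the core of the site of the Notch effector, was in 6 windows (31.6%) against 8.45% of the list: in 3 of Itga7 and in 1 each of Itgb1, Calcr and Met. The E-box CAGCTG, a site of myogenic factors, was in 3 windows (15.8%) against 31.1%, and AP-1 in 1 (5.26%) against 15.5%. None of these words was in the 3 windows of Cdh15 or in that of Cxcr4. GC content had a median of 56.0% at these sites and in the list. A match says only that the letters are there.

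A wider list of 66 surface and niche genes was counted in the same way. After BMP6, 32 had a pSMAD1/5/9 peak, where 29.1% of all genes did, and 41 a SMAD4 peak, where 39.3% did. In control cells the counts were 7 and 33, beside 5.97% and 30.8% of all genes. A pSMAD1/5/9 peak in the BMP6 list alone was found for 25, where 23.5% of all genes had one. By role, pSMAD1/5/9 was listed after BMP6 at 10 of 20 genes of adhesion and matrix, 4 of 6 proteoglycans, 5 of 11 genes of cell contacts, 9 of 21 receptors and ligands, and 4 of 8 tetraspanins and other surface proteins. The 5 genes with the strongest peak were Cd63 (rank 22), Lama5 (62), Bgn (352), Plau (395) and Itgb5 (397). Cd63, a tetraspanin, owed its place to the peak between Bloc1s1 and Rdh5 that was counted for Itga7, 12568 bp from its own TSS. For Lama5, the laminin α5 chain, the summit lay 2037 bp upstream of the TSS, and for Plau, urokinase, 5205 bp upstream. Bgn encodes the matrix proteoglycan biglycan, and its peak lay 17941 bp upstream, nearer to Haus7. In Itgb5, the integrin β5 subunit, it lay in an intron 86958 bp from the TSS, nearer to Umps.

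H3K27ac at the TSS of marker genes was used to check the label. It was listed in both conditions for the MuSC markers Pax7, Myf5, Myod1 and Des, 4 of 5 markers of differentiated muscle (all but Myh4), 0 of 4 endothelial markers, 1 of 4 leukocyte markers (Cd68) and 1 of 4 fibro-adipogenic markers (Dpt). The defining markers Ptprc, Pecam1, Cdh5 and Pdgfra and the glial factor Sox10 had no H3K27ac peak at the TSS in either list.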

How the data were processed

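The authors performed CUT&Tag with 3 antibodies on MuSCs, 100000 cells per library. Of 14 samples, grouped by their labels, 12 entered the 6 lists, and the 2 made with no primary antibody were not analysed here. Reads were subsampled to an equal depth per antibody, aligned to GRCm39 with Bowtie2 2.5.4 and filtered with SAMtools 1.21, and peaks were called per replicate with JAMM and combined with IDR at 0.05 (filtered peaks for both SMAD antibodies, all peaks for H3K27ac). The deposited signal is a score of the authors' peak caller with no fixed range, and the consensus value is the sum of both replicate columns, which carry no replicate number. The deposited lists also hold IDR as −log10 values and the summit as an offset in bp. The methods state a minimum number of reads per sample and the equal subsampling given above, so total depth was matched within an antibody, but the lists hold no reads and the depth behind a single peak is unknown.

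Positions were made 1-based, genes were the canonical transcripts of GENCODE M39 on GRCm39, and an overlap was at least 1 bp. Signal was used only as a rank within a list. A place in per cent from the top depends on the length of the list. TSS peaks overlapped the 2 kb on either side. Motifs were counted in 200 bp windows, and sequences were checked against annotated UTRs. No test was run, since each condition has 1 list per antibody: counts are set beside the same count over all genes or peaks, and shares have Wilson 95% intervals. Overlaps were tested on simulated data, where 600 of 600 planted ones were found, and against bedtools 2.31.1. Python 3.11.15, numpy 2.4.6, pandas 2.3.3, scipy 1.17.1 and matplotlib 3.10.9 were used. The 10 genes, the wider list and the marker lists were chosen with earlier results of these data known. Some entries of the marker lists are not reported here. All 10 genes were named, with the 5 of the wider list that had the strongest pSMAD1/5/9 peak, and a neighbour where its TSS was nearer to a peak. The share among genes with H3K27ac at the TSS and the counts without Itga7 were chosen after seeing the data. Alternatives covered the IDR threshold, the region, the assignment, the transcripts, the length of the list, the overlap and each replicate column alone.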

Additional observations from a re-analysis of the deposited data

How the results depend on the processing

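Peak counts depended most on the region. In a narrow TSS region, 1.5 kb before it and 0.5 kb after it, peaks fell to 2 and 0 for pSMAD1/5/9 (BMP6 and control). For SMAD4 they fell to 5 and 3, and for H3K27ac to 9 and 10. Genes with a pSMAD1/5/9 peak there numbered 2 and 0, against 11.2% and 1.56% of all genes. For SMAD4 they numbered 4 and 2, against 16.6% and 11.4%. With 5 kb on either side, or with peaks whose nearest TSS is that of the gene, control pSMAD1/5/9 was 1 peak at 1 gene. With 5 kb, 3.65% of all genes had such a peak. At an IDR of 0.01 control pSMAD1/5/9 was 1 peak at 1 gene (0.915% of all genes). SMAD4 peaks were then 16 after BMP6 and 9 in control cells, and control SMAD4 was at 4 genes (16.2% of all genes). In a BMP6 list as long as the control list, 5 pSMAD1/5/9 peaks at 3 genes remained (5.31% of all genes). Without Itga7, which was chosen after the data had been seen, 11 pSMAD1/5/9 peaks were left after BMP6 and 1 peak at 1 gene in control cells. With an overlap of 50% of both peaks, pSMAD1/5/9 after BMP6 shared 0% with control pSMAD1/5/9, 73.7% with SMAD4 and 0% with H3K27ac. The shares of the whole list were 8.72%, 57.1% and 2.89%. The median H3K27ac peak width was 1470 bp, against 582 bp for pSMAD1/5/9. Both control pSMAD1/5/9 peaks lay wholly inside a wider peak after BMP6. At Itga7 the widths were 1160 bp and 2580 bp, and at Cdh15 720 bp and 1830 bp. At the overlap of 50%, SMAD4 shared 40.0% and 55.6% between conditions (BMP6 and control peaks), against 34.3% and 51.4% of the lists. H3K27ac shared 57.8% and 57.6%, below the 61.2% and 70.4% of the lists, whereas with 1 bp its shares were above those of the lists. At an IDR of 0.01 in all lists, 9 of 9 control SMAD4 peaks (100%) were shared, against 80.6% of the list. Ranked by either replicate column alone, 2 genes had a pSMAD1/5/9 peak in the top 10% in both cases. The other 88 of 120 recomputed counts and shares stayed within 1.5 times the reported count or inside the interval of the share. Where no cause is shown by the construction of an alternative, the cause was not tested. No paired analysis was possible because each condition has 1 consensus list per antibody and no result comes from a test. Total read depth was made equal per antibody by the authors' subsampling. The lists hold no reads, so the limit that depth sets at a single peak is unknown, and a gene without a listed peak is not shown to be free of binding.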
